A study of Mus musculus with 18 samples.

Results

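In L929 cells, a mouse fibroblast line, 231 genes of the 57180 rows of the expression table stood at a log2 ratio of -1 or lower in cells transfected with HT-DNA relative to Mock cells. HT-DNA is herring testis DNA, a double-stranded ligand of the cytosolic DNA sensor cGAS. The members were found by scaling each library to CPM (the count of a gene over the library total, times 1e6), keeping the 10021 rows with a Mock mean of at least 5 CPM, and taking log2 of the HT-DNA mean over the Mock mean, each with 0.1 CPM added. Of 242 rows that passed, 11 whose names start with Zfp were left out. A fall of this size was present in 2.41% of the 10021 rows, whereas 21 of them rose by the same factor or more. The membership depended on the scaling and on single libraries: with CPM scaled by TMM, the normalization used for the tests below, 132 of the 231 met the rule, and without HT-DNA replicate 2 the rule gave 352 members, 221 of them shared.

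The study set 3 libraries in each of 6 groups of wild-type cells, which the study describes as independent cultures. Mock cells carry the treatment label DMSO, and the labels do not say whether they received transfection reagent. The other groups were AOA, AOA plus aspartate (AOA+Asp), HT-DNA alone, and HT-DNA after AOA, either without aspartate (HT-DNA+AOA) or with it (HT-DNA+AOA+Asp). Library totals were 17901605 to 24057343 counts. HT-DNA was used at 0.5 µg/ml with Lipofectamine 2000. The sample titles of AOA and AOA+Asp name no reagent either, so an HT-DNA effect cannot be told apart here from one of the reagent. The doses and times of AOA and aspartate are not stated for the sequenced cells, and in other L929 experiments of the study they were 0.5 mM AOA for 1 h, a further 6 h with the stimulus, and 20 mM aspartate. No group received aspartate without AOA, so an aspartate effect was measured only in cells that also held AOA. AOA, aminooxyacetic acid, blocks aminotransferases, the enzymes through which most cells make aspartate. Of 9 fibroblast markers, 8 were over 5 CPM in every group and 1 was under 1 CPM, and all leukocyte, epithelial and endothelial markers examined were under 1 CPM in every group.

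Cytosolic DNA sensing is known for the genes it turns on, the type I interferon and inflammatory programme downstream of STING. The genes considered here went the other way. Transcripts of a cell differ widely in how fast they are made and degraded, and regulators of growth and nutrient use are often among the fast ones, so that their levels follow the state of the cell within hours. Several of the members, such as Ccng2, Hbp1, Pnrc1 and Klhl24, are known as genes that rise when growth factors or nutrients are withdrawn. In bulk RNA, fewer cells that express a gene and less RNA of it in each cell cannot be told apart.

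Since the Mock and HT-DNA libraries chose the members, their difference is given as a description only. The tests below compare the 4 groups that the rule did not use, with 12 libraries in all. The fit held all 18 libraries, so each gene's spread was estimated from the Mock and HT-DNA libraries as well. Results of fits on fewer libraries are given at the end. HT-DNA+AOA was compared with AOA, and HT-DNA+AOA+Asp with AOA+Asp, which gives the HT-DNA effect in 2 settings that share no library. AOA+Asp was compared with AOA, and HT-DNA+AOA+Asp with HT-DNA+AOA, which gives the aspartate effect without and with HT-DNA. A gene was called when the adjusted p of edgeR's quasi-likelihood test, taken over all 14263 genes tested, was under 0.05. All 231 members were tested, and log2 fold changes are given with their standard errors (SE).

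The sequence before the start site is shown for the 5 members with the deepest summed falls among those lower with HT-DNA in both settings that have 1 start site in the table, since these genes moved together in the comparisons below. Each window runs from 250 bases before to 50 bases after the annotated start, 5′ to 3′, from RefSeq on GRCm38.p6. Capitals mark CACGTG (E-box), TGTTTAC (forkhead, FOXO), CCACCC (KLF) and CGGAAG (ETS) on either strand. Hbp1, a repressor of cell cycle genes, has a forkhead match, Crebrf, a regulator of the CREB3 stress factors, has a pair of E-boxes, and Mxd4, which competes with MYC for MAX, has an E-box and a KLF match. Pnrc1, a nuclear receptor coactivator, and Lpin1, a phosphatidate phosphatase that is also a nuclear coregulator, each have 1 KLF match.
Hbp1, chr12:31950196-31950495, minus strand: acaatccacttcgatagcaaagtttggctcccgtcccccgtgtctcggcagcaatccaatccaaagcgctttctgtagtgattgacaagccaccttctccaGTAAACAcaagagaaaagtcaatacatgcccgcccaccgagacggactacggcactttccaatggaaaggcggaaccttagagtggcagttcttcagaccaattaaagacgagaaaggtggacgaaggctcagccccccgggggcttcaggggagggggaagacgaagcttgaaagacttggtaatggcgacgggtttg
Pnrc1, chr4:33248738-33249037, minus strand: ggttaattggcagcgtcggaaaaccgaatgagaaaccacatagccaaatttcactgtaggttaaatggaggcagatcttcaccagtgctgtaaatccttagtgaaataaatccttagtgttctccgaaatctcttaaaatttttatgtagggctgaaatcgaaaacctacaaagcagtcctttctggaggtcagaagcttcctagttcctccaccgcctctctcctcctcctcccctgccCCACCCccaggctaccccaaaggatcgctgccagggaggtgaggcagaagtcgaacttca
Crebrf, chr17:26715400-26715699, plus strand: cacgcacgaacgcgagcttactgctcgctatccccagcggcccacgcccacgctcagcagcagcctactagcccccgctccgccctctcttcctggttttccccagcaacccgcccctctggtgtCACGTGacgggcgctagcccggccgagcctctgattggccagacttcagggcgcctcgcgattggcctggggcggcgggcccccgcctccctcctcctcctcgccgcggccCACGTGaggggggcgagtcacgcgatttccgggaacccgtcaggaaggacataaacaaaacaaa
Lpin1, chr12:16610917-16611216, minus strand: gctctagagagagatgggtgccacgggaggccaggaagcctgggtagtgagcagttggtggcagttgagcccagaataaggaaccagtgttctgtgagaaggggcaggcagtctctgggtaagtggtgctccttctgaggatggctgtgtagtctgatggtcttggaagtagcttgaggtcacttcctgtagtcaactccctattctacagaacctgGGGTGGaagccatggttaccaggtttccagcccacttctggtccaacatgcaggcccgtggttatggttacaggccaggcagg
Mxd4, chr5:34187661-34187960, minus strand: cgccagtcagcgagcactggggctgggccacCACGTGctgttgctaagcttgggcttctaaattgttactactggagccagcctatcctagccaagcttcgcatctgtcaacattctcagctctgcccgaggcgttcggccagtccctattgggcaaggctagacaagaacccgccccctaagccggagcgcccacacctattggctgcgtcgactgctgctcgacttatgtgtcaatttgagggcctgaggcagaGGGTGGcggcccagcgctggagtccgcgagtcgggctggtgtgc

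Promoters were found for 155 members, with 215 start sites among 32851 in the table. CCACCC was in 43.3% of the members' promoters, 35.9% of those of genes with a Mock mean of at least 5 CPM and 31.5% of all promoters. TGTTTAC, a motif added after the values had been seen, was in 5.12%, 2.40% and 3.65% respectively, and CACGTG was in 8.84%, 10.5% and 7.15%. CGGAAG was in 20.0%, 34.0% and 16.9%, so that the members lay below the expressed genes and above all promoters. The interferon-stimulated response element was in 2.33%, 2.90% and 3.44%, and the window was richer in G and C in members and in expressed genes (medians 60.3% and 61.3%) than in all promoters (52.7%). The overlaps between these motifs were not removed, and a match describes letters only.

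In every library that received HT-DNA or AOA without aspartate, the members' median lay below the Mock mean. The median log2 ratio to the Mock mean was -0.65 in AOA, -1.16 in HT-DNA, where the rule fixed it, and -1.0 in HT-DNA+AOA. With aspartate it was 0.057 in AOA+Asp and -0.35 in HT-DNA+AOA+Asp. The 10021 genes with a Mock mean of at least 5 CPM had medians between -0.17 and -0.039 in these groups. The Mock libraries entered both the rule and these ratios, so the levels are a description.

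A log2 ratio of -1 or lower was present for 51 members in AOA (background 3.94% of genes), 5 in AOA+Asp (0.2%), 115 in HT-DNA+AOA (7.84%) and 11 in HT-DNA+AOA+Asp (0.339%). The 3 HT-DNA+AOA libraries stood far apart, with member medians of -0.62, -1.09 and -1.48, whereas the 3 AOA libraries lay between -0.71 and -0.55 and the 3 HT-DNA+AOA+Asp libraries between -0.37 and -0.30. The AOA and HT-DNA+AOA libraries overlapped, since HT-DNA+AOA replicate 1 lay among the AOA libraries. AOA+Asp replicate 2 stood at -0.13 beside 0.12 and 0.14 in the others.

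**Figure D1:**
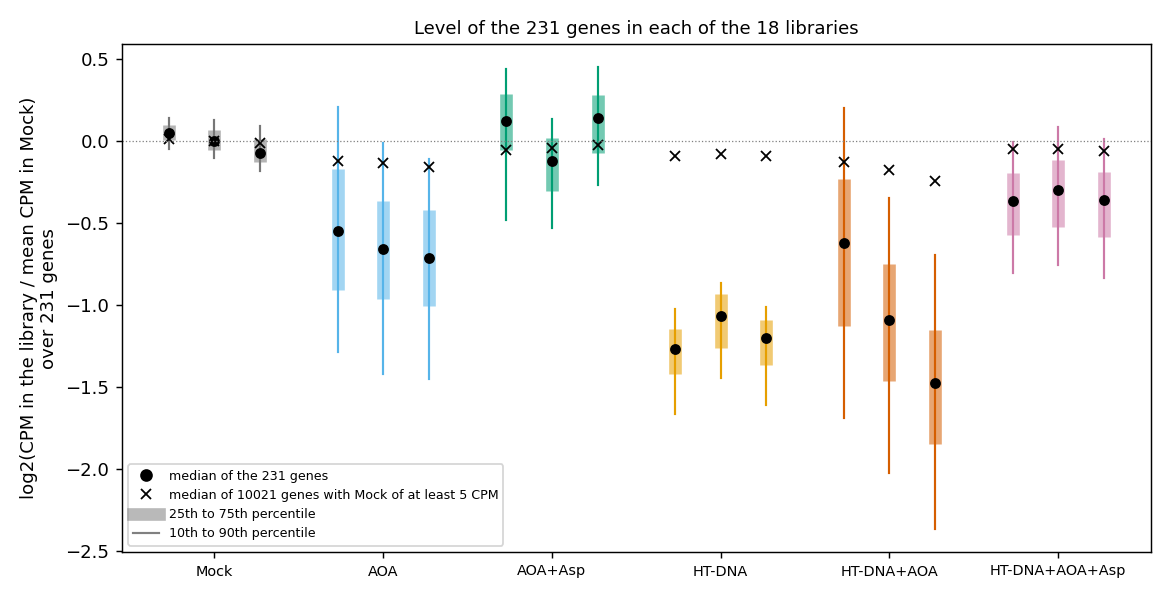
Level of the 231 genes in each of the 18 libraries, as log2 of the library's CPM over the Mock mean (vertical axis), grouped by treatment (horizontal axis). Dots are medians, thick bars the 25th to 75th and thin bars the 10th to 90th percentile over genes, and crosses the median of 10021 genes; aspartate libraries lie near Mock and the 3 HT-DNA+AOA libraries spread from -0.62 to -1.48.

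HT-DNA lowered members again in cells that the rule had not seen. With AOA, 71 members were called lower and 1 higher (background 6.98% and 6.46% of all genes tested). With AOA and aspartate, 47 were lower and 0 higher by edgeR (background 1.52% and 1.93%), and DESeq2 also called 0 higher. At an unadjusted p under 0.05, 120 members passed, and 0 of them were higher. The share of all genes at that limit was not computed, so this count has no background beside it. Both falls were shallower than in the rule: the members' median log2 fold change was -0.34 and -0.33, against -0.0085 and -0.0020 over all genes tested, and 212 and 218 of the 231 estimates were below 0. The first count rested on few libraries: it was 172 without HT-DNA+AOA replicate 1 and 46 without AOA replicate 1. The second was 29 without HT-DNA+AOA+Asp replicate 1 or AOA+Asp replicate 3 and 31 without AOA+Asp replicate 1. The shares of all genes called in these smaller fits are not given here, so these counts have no background beside them.

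A common set of 35 members was called lower in both settings, which is 49.3% of the 71 and 74.5% of the 47, and 0.982% of all genes were called lower in both. Across the members the effects in the 2 settings had a Pearson r of 0.50 and a Spearman rho of 0.43 (n = 231 genes of the same libraries), beside 0.51 and 0.41 over all 14263 genes. Genes are not independent replicates, and these correlations only describe the spread of points.

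**Figure D2:**
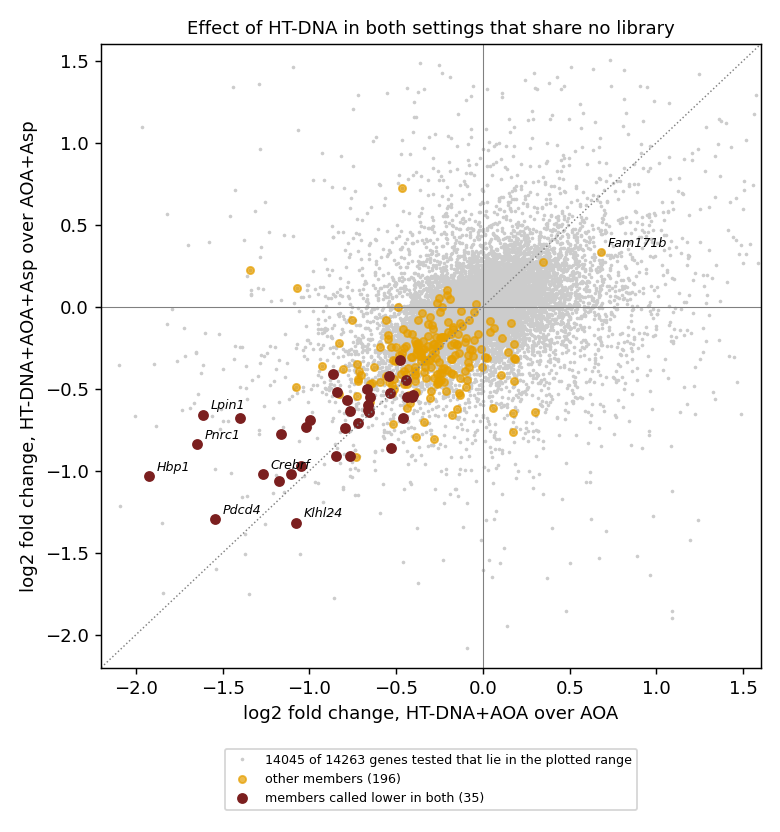
Each point is a gene, with the log2 fold change of HT-DNA+AOA over AOA on the horizontal and of HT-DNA+AOA+Asp over AOA+Asp on the vertical axis. Grey points are the 14045 of 14263 tested genes inside the plotted range, dark points the 35 members called lower in both, light points the other 196 members, and the dotted line marks equal effects; most members lie below and to the left of 0.

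Of 10 sets of members sorted by role, the set of growth-restraining and stress regulators had the lowest medians. This set of 11 genes was put together after the values had been seen, as were the other sets, so their counts are a description. With AOA, HT-DNA lowered 8 of the 11 (median -1.17), and with AOA and aspartate 10 of the 11 (median -0.84). In these settings 30.7% and 20.3% of all members and 6.98% and 1.52% of all genes were lower. Hbp1 was at 55.5, 50.7 and 57.0 CPM in Mock and 13.6, 15.4 and 13.9 CPM in HT-DNA. In AOA it held 36.3, 39.1 and 38.9 CPM, and in HT-DNA+AOA 11.8, 9.60 and 8.42 CPM, with no overlap (log2 fold change -1.92, SE 0.09, adjusted p = 1.6e-11). With aspartate added, Hbp1 held 82.9, 71.8 and 79.4 CPM without HT-DNA and 36.5, 39.2 and 37.7 CPM with it (-1.03, SE 0.08, adjusted p = 1.3e-07). Thus every HT-DNA library was below every library of the matching group without it, and the aspartate-treated cells with HT-DNA stood close to the AOA cells without it.

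Pnrc1 was also lower with HT-DNA in both settings. It held 13.0, 13.3 and 15 CPM in AOA and 4.22, 4.34 and 4.43 CPM in HT-DNA+AOA (-1.65, SE 0.11, adjusted p = 2.6e-09). With aspartate it held 29.1, 26.1 and 29.8 CPM without HT-DNA and 14.3, 17.9 and 14.9 CPM with it (-0.84, SE 0.09, adjusted p = 1.1e-05). The groups did not overlap in either setting. Pdcd4 encodes an inhibitor of the initiation factor eIF4A and thereby of translation. It was at 6.42, 8.77 and 8.10 CPM in AOA and at 3.29, 2.32 and 2.30 CPM in HT-DNA+AOA (-1.54, SE 0.17, adjusted p = 2.4e-06). In AOA+Asp it was at 22.8, 17.3 and 20.7 CPM, and with HT-DNA at 7.72, 7.78 and 9.03 CPM (-1.30, SE 0.14, adjusted p = 5.0e-06), again without overlap.

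Ccng2, the cyclin G2 gene linked to cell cycle arrest, was at 16.5, 17.5 and 16.0 CPM in AOA and 7.67, 6.16 and 4.93 CPM in HT-DNA+AOA (-1.40, SE 0.13). Mxd4 was at 10.9, 11.9 and 12.4 CPM and at 4.26, 4.83 and 6.29 CPM in the same groups (-1.17, SE 0.14), and Crebrf at 8.78, 9.31 and 11 CPM and at 4.63, 4.09 and 3.17 CPM (-1.27, SE 0.14). None of the 3 genes overlapped between these groups. Klhl24, a substrate adaptor of cullin 3 ubiquitin ligases, fell by 1.08 (SE 0.16) with AOA and by 1.32 (SE 0.15) with AOA and aspartate. Foxn3, a forkhead repressor, was also called in both settings, but its call with aspartate was lost in 5 of 15 alternatives (adjusted p up to 0.084). Rb1, the retinoblastoma gene, was called with aspartate (-0.49, SE 0.11, adjusted p = 0.019), a call lost in 6 of 15 alternatives, and not with AOA alone (-0.10, SE 0.12). Its difference between the settings was not called (interaction -0.39, SE 0.17, adjusted p = 0.38). The p53-responsive Trp53inp1 was not called in either setting (-0.31, SE 0.22 and -0.56, SE 0.20).

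**Figure D3:**
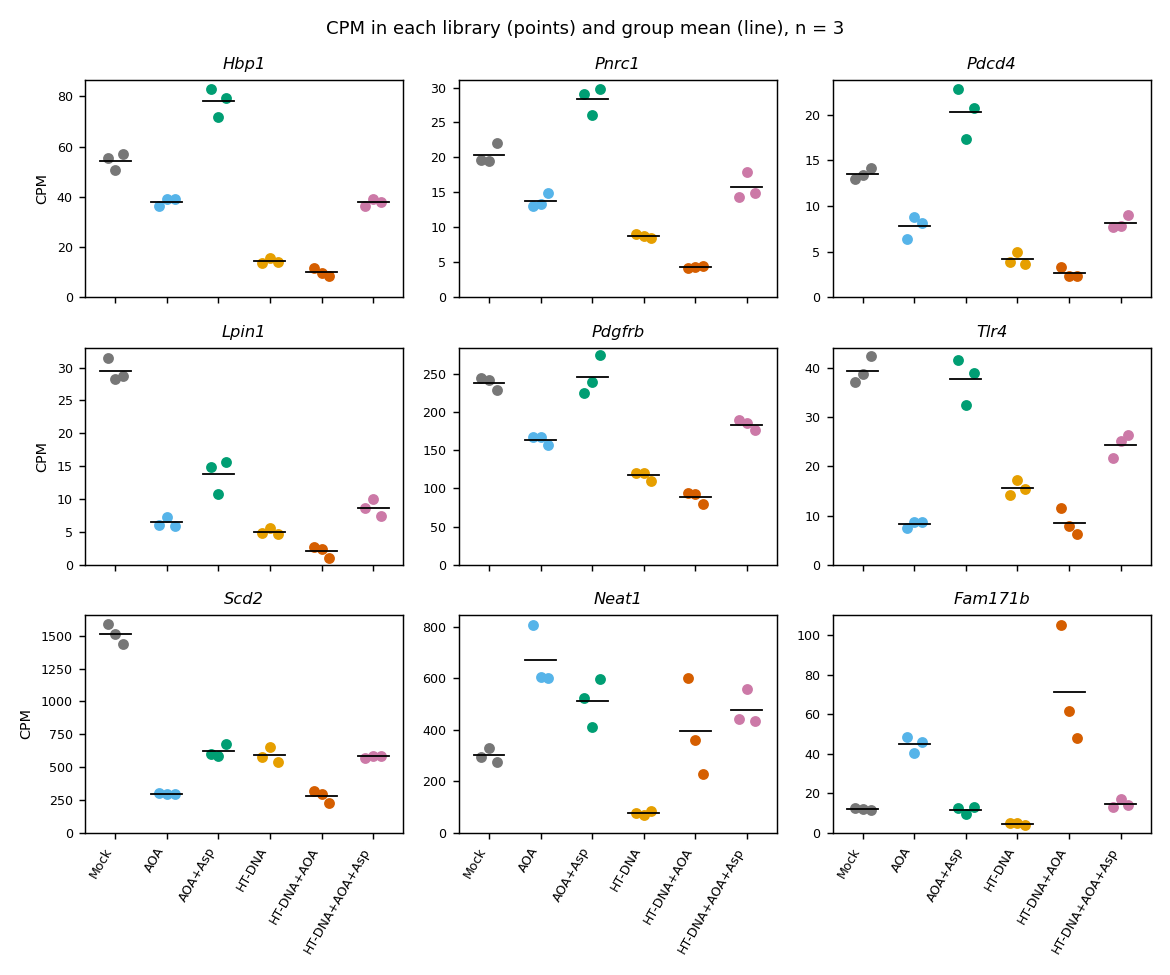
CPM (vertical axes, from 0) of 9 members in the 6 groups (horizontal axis), with a point for each library and a line at the mean of 3. Hbp1, Pnrc1 and Pdcd4 are lowest in HT-DNA+AOA and highest in AOA+Asp, Scd2 is highest in Mock, and Neat1 and Fam171b are higher in AOA than in Mock.

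Receptors of growth factors were among the abundant members. Pdgfrb, the receptor for platelet-derived growth factor BB, held 167, 167 and 156 CPM in AOA and 93.8, 92.6 and 79.9 CPM in HT-DNA+AOA (-0.86, SE 0.07, adjusted p = 5.1e-08). With aspartate it held 225, 240 and 275 CPM without and 189, 185 and 176 CPM with HT-DNA (-0.41, SE 0.07, adjusted p = 0.0015). The groups were apart in both settings. Its relative Pdgfra and the insulin receptor Insr were also called lower in both, but without some single libraries these calls were lost, with adjusted p up to 0.19 for Pdgfra and 0.28 for Insr in cells with aspartate. Tlr4, the receptor for bacterial lipopolysaccharide, was called lower with aspartate (-0.62, SE 0.13, adjusted p = 0.012) and not with AOA alone (0.06, SE 0.16), and the difference between the settings was not called (interaction -0.67, SE 0.21, adjusted p = 0.17). Its call was lost without AOA+Asp replicate 1 or 3 or HT-DNA+AOA+Asp replicate 1, and in the fit of 12 libraries. Of the 10 receptors, 3 were lower with AOA and 4 with AOA and aspartate. Among all members 30.7% and 20.3% were, and among all genes 6.98% and 1.52%, so the count with AOA is near that of any members. The collagen receptor gene Ddr2 was called in neither setting (-0.23, SE 0.15 and -0.18, SE 0.15).

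Among 13 genes of lipid metabolism, 3 were lower with HT-DNA in AOA cells and 1 with AOA and aspartate (medians -0.29 and -0.28). The shares over all members were 30.7% and 20.3%, and over all genes 6.98% and 1.52%. Lpin1 had the second-lowest rule ratio (-2.53) and fell with HT-DNA in AOA cells, from 6.12, 7.27 and 5.98 CPM to 2.78, 2.37 and 1.09 CPM (-1.61, SE 0.21, adjusted p = 3.3e-05). In cells with aspartate its fall (-0.66, SE 0.17, adjusted p = 0.032) was lost in 5 of 15 alternatives, with adjusted p up to 0.20. The cholesterol exporter gene Abca1 fell by 1.08 (SE 0.16) with AOA. Scd2, a stearoyl-CoA desaturase, was the most abundant member in Mock (1588, 1510 and 1437 CPM). It held 302, 291 and 293 CPM in AOA and 317, 291 and 222 CPM in HT-DNA+AOA, groups that overlapped (-0.08, SE 0.09, adjusted p = 0.62). Hmgcs1, which encodes an enzyme of cholesterol synthesis, and Elovl6, a fatty acid elongase, had values of -0.14 and -0.08 with AOA and of -0.17 and -0.30 with AOA and aspartate, and neither was called.

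Other members called lower in both settings act in protein turnover, transcription and RNA silencing. Fbxl20, an F-box protein of SCF ubiquitin ligases, fell by 1.10 (SE 0.16) and 1.02 (SE 0.14). Cdk19, a kinase of the Mediator complex, fell by 1.05 (SE 0.12) and 0.97 (SE 0.11). Tnrc6b, a scaffold of microRNA silencing, fell by 0.78 (SE 0.12) and 0.57 (SE 0.11), and the ETS factor Etv1 by 0.77 (SE 0.14) and 0.91 (SE 0.12). Calcoco1 and Nbr1, which encode autophagy receptors, fell by 0.80 (SE 0.10) and 0.74 (SE 0.09), and by 0.66 (SE 0.12) and 0.63 (SE 0.12). The calls of Etv1 and Nbr1 with AOA were lost when only the 6 libraries compared were fitted (adjusted p = 0.056 and 0.0995).

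The counts in other sets are to be read against 30.7% and 20.3% of all members and 6.98% and 1.52% of all genes. Among 12 genes of very large scaffold proteins, such as the nuclear envelope spectrins Syne1 and Syne2 and the dystrophin relative Utrn, 2 were called in each setting (medians -0.38 and -0.31). Of 7 genome maintenance genes, 2 were lower with AOA, and Brca1 stood at -0.43 (SE 0.16, adjusted p = 0.085) and -0.54 (SE 0.15, adjusted p = 0.054). Among 12 genes of chromatin and the transcription machinery 4 and 1 were lower, among 12 transcription factors 4 and 2, and among 8 cilium and centriole genes 2 and 1. Of 10 genes of transporters and channels, 4 and 1 were lower. The nuclear RNA Neat1, which builds paraspeckles, had its own order of groups. It held 295, 328 and 276 CPM in Mock, 76.4, 69.4 and 82.9 CPM in HT-DNA, and 808, 607 and 601 CPM in AOA. In HT-DNA+AOA its libraries lay at 603, 361 and 227 CPM (-0.76, SE 0.24, adjusted p = 0.044), which overlap those of AOA, and the call was lost in 7 of 15 alternatives.

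**Figure D4:**
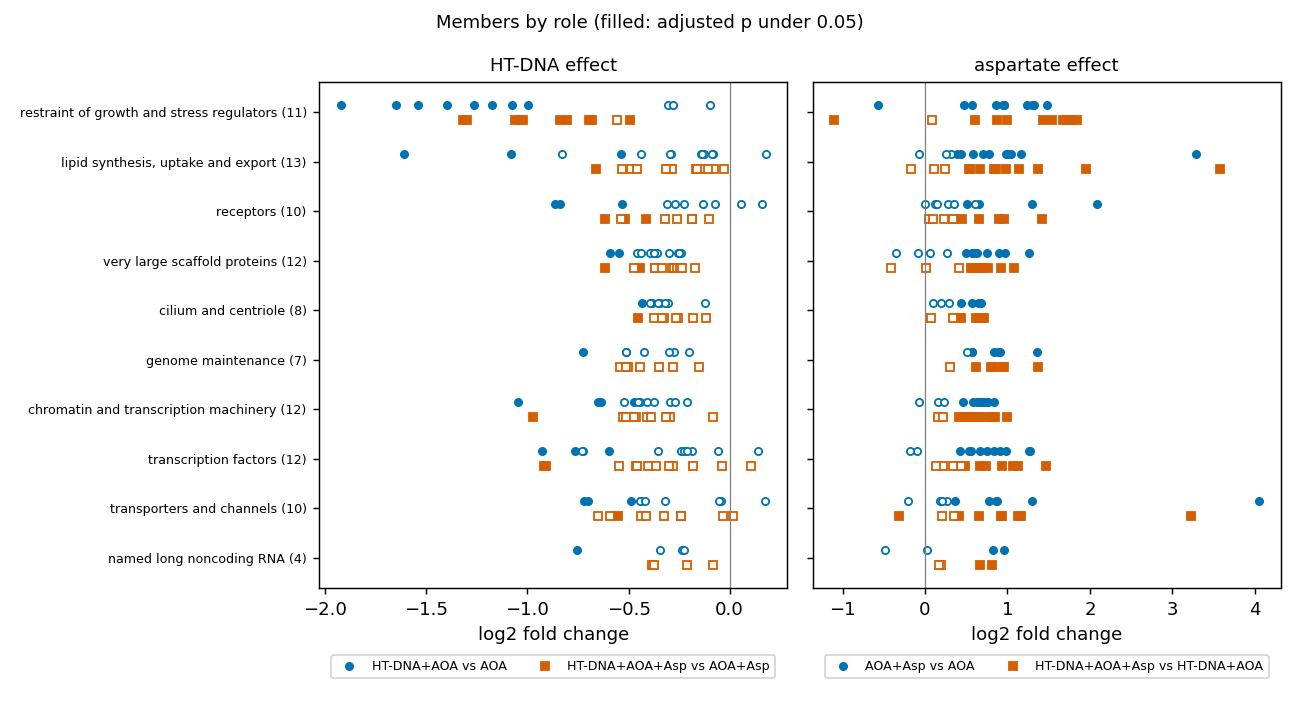
Log2 fold changes (horizontal axes) of HT-DNA (left) and aspartate (right) for members sorted by role (vertical axis, number of genes in brackets), with a circle or square for each gene in each comparison. Filled symbols have an adjusted p under 0.05; the 11 growth-restraining and stress regulators reach the lowest HT-DNA values, and aspartate values lie mostly above 0.

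Aspartate raised most members. Without HT-DNA, 151 members were higher and 10 lower in AOA+Asp than in AOA (background 23.5% and 22.8% of all genes). With HT-DNA, 153 were higher and 12 lower (background 23.7% and 23.9%). The members' median log2 fold change was 0.58 and 0.61, against -0.0091 and -0.012 over all genes tested. Both comparisons called 139 of the members higher, 92.1% of the 151 and 90.8% of the 153, whereas 17.7% of all genes were higher in both. The estimates across members had a Pearson r of 0.88 and a Spearman rho of 0.85, beside 0.68 and 0.79 over all genes.

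The steepest rises, those of Slco4a1 and Abcg1, were in genes under 1 CPM in AOA cells. Slco4a1, an organic anion transporter, was at 0.251, 0.499 and 0.391 CPM in AOA and 6.11, 5.66 and 8.91 CPM in AOA+Asp (4.05, SE 0.26). The sterol exporter gene Abcg1 was at 0.802, 0.790 and 0.838 CPM in AOA and 7.88, 7.15 and 10.2 CPM in AOA+Asp (3.28, SE 0.22). Both were near their Mock levels in AOA+Asp, at 5.50, 5.10 and 6.45 CPM for Slco4a1 and 7.48, 6.00 and 8.15 CPM for Abcg1 in Mock. Tlr4 was at 7.52, 8.69 and 8.77 CPM in AOA and 41.5, 32.5 and 38.9 CPM in AOA+Asp (2.09, SE 0.15, adjusted p = 4.2e-09), and at 11.6, 7.93 and 6.18 CPM against 21.6, 25.2 and 26.3 CPM in the cells with HT-DNA (1.42, SE 0.15). In each aspartate comparison given for these genes, all libraries with aspartate were above all those without it. Ndrg4, Hspa4l, a heat shock protein, and Ppargc1a, the coactivator of mitochondrial genes, rose by 2.39 (SE 0.20), 1.94 (SE 0.16) and 1.51 (SE 0.19) without HT-DNA, and by 2.26, 1.56 and 1.21 with it.

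Of all members, 65.4% rose with aspartate without HT-DNA and 66.2% with it, beside 23.5% and 23.7% of all genes. The role sets were put together after the values had been seen. All 11 growth-restraining and stress regulators moved with aspartate without HT-DNA, 10 up and 1 down (4.33% of members and 22.8% of all genes fell). Pdcd4, Mxd4, Klhl24 and Crebrf rose by 1.30 (SE 0.14), 1.33 (SE 0.12), 1.24 (SE 0.15) and 1.48 (SE 0.11). With HT-DNA, Pnrc1 rose by 1.77 (SE 0.11) and Ccng2 by 1.68 (SE 0.13). The gene that fell was Ypel3 (-0.58, SE 0.12, and -1.10, SE 0.12 with HT-DNA). Of the 13 lipid genes, 10 rose in each comparison. Scd2 went from 302, 291 and 293 CPM in AOA to 596, 584 and 674 CPM in AOA+Asp (0.98, SE 0.09, adjusted p = 1.2e-07), with no overlap, and both groups lay below the Mock level given above. Hmgcs1 and Elovl6 rose by 1.17 (SE 0.12) and 1.05 (SE 0.14). Of the genome maintenance genes 6 of 7 rose in each comparison, among them Brca1 (0.92, SE 0.15). Slc7a11, the cystine-glutamate exchanger, rose by 0.86 (SE 0.12) and 0.92 (SE 0.12).

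A common set of 9 members was lower with aspartate in both comparisons (17.5% of all genes were). They were Aldh1l2, Dennd4a, Eif1ad6, Fam171b, Gramd1b, Kif21b, Trim66, Ypel3 and a row with no symbol, ENSMUSG00000121806. Fam171b was at 12.2, 12.1 and 11.2 CPM in Mock, 48.7, 40.1 and 46.0 CPM in AOA and 12.3, 9.53 and 13.1 CPM in AOA+Asp (-2.03, SE 0.20, adjusted p = 2.4e-07). It was also the member called higher with HT-DNA in AOA cells (0.68, SE 0.18, adjusted p = 0.016), where its libraries lay at 105, 61.6 and 47.7 CPM and overlapped AOA. This rise was lost without AOA replicate 2 (adjusted p = 0.091) and with only the 6 libraries compared (adjusted p = 0.20). Aldh1l2, a mitochondrial folate enzyme, was at 295, 271 and 235 CPM in AOA and 179, 155 and 192 CPM in AOA+Asp (-0.69, SE 0.13). Dennd4a was at 72.1, 61.0 and 58.9 CPM in AOA and 33.6, 33.7 and 33.9 CPM in AOA+Asp (-1.01, SE 0.15). For these 3 genes the AOA libraries were above all AOA+Asp libraries. In cells with HT-DNA, the aspartate calls of Aldh1l2 and Gramd1b were each lost in 4 of 15 alternatives, among them leaving out HT-DNA+AOA replicate 1 (adjusted p = 0.15 and 0.070).

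Whether the HT-DNA effect differed between the settings was tested by an interaction term. It was called for 6 of the 231 members (background 0.785% of genes lower and 0.266% higher, by the sign of the term), and its median over members was 0.032. A positive term means a smaller fall with aspartate. Hbp1 (0.89, SE 0.13, adjusted p = 0.00073), Pnrc1 (0.81, SE 0.15, adjusted p = 0.0075), Ccng2 (0.72, SE 0.17, adjusted p = 0.047) and Pdgfrb (0.45, SE 0.10, adjusted p = 0.033) had positive terms. Filip1l (-0.94, SE 0.19, adjusted p = 0.015) and Eif1ad6 (-0.94, SE 0.22, adjusted p = 0.044) had negative ones. Filip1l held 90.4, 86.0 and 105 CPM in AOA and 151, 111 and 83.5 CPM in HT-DNA+AOA, which overlap, and 152, 126 and 153 CPM in AOA+Asp against 86.2, 94.2 and 93.7 CPM with HT-DNA, which do not. Hbp1 kept its call in all 20 alternatives and Pnrc1 in 19, whereas Ccng2 kept it in 6, Eif1ad6 in 9, Pdgfrb in 10 and Filip1l in 15.

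The members were long transcripts of low GC content. Of 226 members found in the GENCODE vM21 annotation, the median of the transcript used was 5711 bases (quartiles 3934 and 8296), against 3110 bases in 9710 other genes with a Mock mean of at least 5 CPM. The median gene span was 58054 against 23068 bases, the median GC content 45.1% against 50.2%, and the median 3′ untranslated region of coding members 2752 against 1155 bases. The quintile of genes with the longest transcripts (5155 bases and above) held 133 of the 226 members, and the quintile with the lowest GC content 99. In the longest quintile 6.69% of genes were members, against 0.805% in the shortest. The element TATTTAT, which is common in unstable transcripts, was present in 55% of the members' 3′ untranslated regions and 30.3% of the others, but per kilobase it was as frequent in members (0.284) as in others (0.285).

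Length also moved with the treatments in genes that are not members. In the comparison of the rule, HT-DNA over Mock, their median log2 ratio went from 0.23 in the shortest quintile to -0.46 in the longest. By GC content it went from -0.29 in the lowest quintile to 0.17 in the highest. What this trend added to the choice of the members was not tested. From the shortest to the longest quintile, the median log2 fold change of genes that are not members went from 0.091 to -0.14 with HT-DNA in AOA cells. It went from 0.062 to -0.083 with HT-DNA in AOA and aspartate, and from -0.22 to 0.21 with aspartate. In each quintile the members' median lay below that of the others for HT-DNA, between -0.40 and -0.31 with AOA and between -0.48 and -0.29 with AOA and aspartate. By GC content, the 7 members in the highest quintile had aspartate medians of -0.20 without and -0.32 with HT-DNA, below those of the other genes there (-0.13 and -0.096), whereas in the 4 other quintiles the members' medians were between 0.44 and 0.67. With a correction for GC content and length, 88 members were lower with HT-DNA in AOA and aspartate, and the aspartate median fell from 0.58 to 0.36. The share of all genes called with this correction is not given here. The part of transcript length in these results was not tested further.

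**Figure D5:**
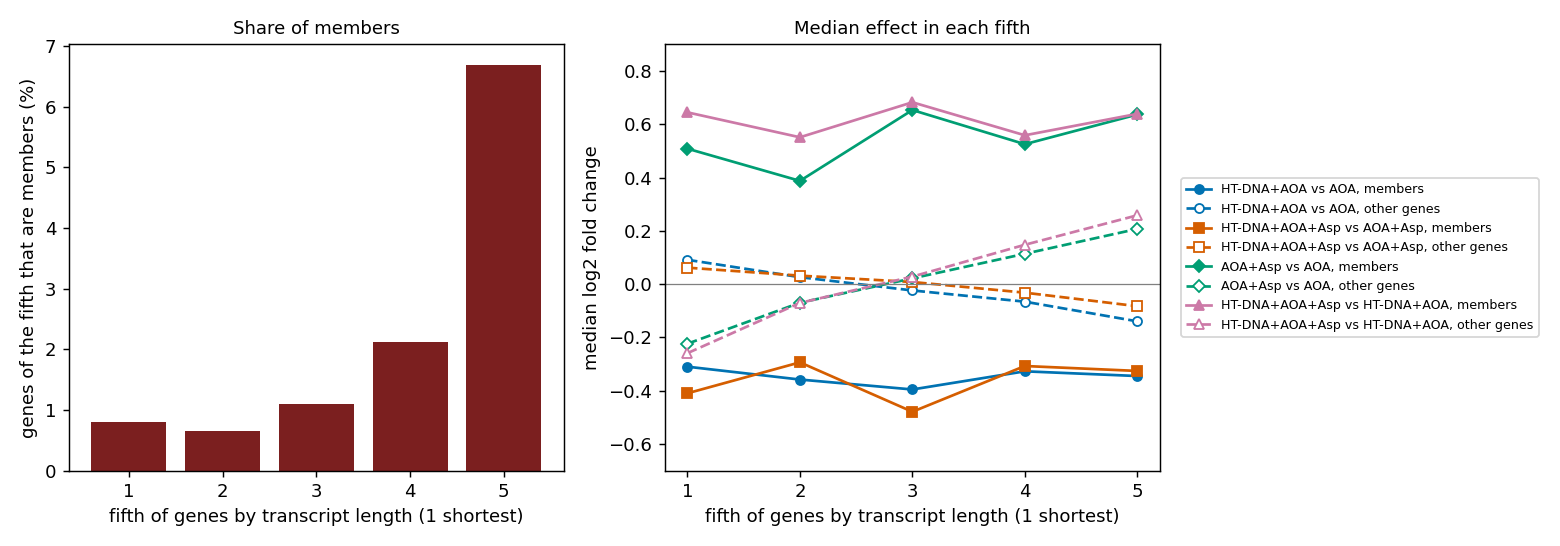
Left, the share of genes that are members (%) in quintiles of 9936 genes by transcript length (1 shortest, 5 longest); right, the median log2 fold change in each quintile for members (filled symbols, solid lines) and other genes (open symbols, dashed lines) in the 4 comparisons. The share reaches 6.69% in the longest quintile, and the other genes' medians cross 0 with length while the members' stay on their side of it.

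By annotation, 186 members were protein coding (80.5%, against 94.8% of the 10021 genes), 21 were long noncoding RNAs (9.09% against 2.40%) and 8 were processed pseudogenes. A further 4 carried the label nonsense-mediated decay and 3 the label retained intron. The members not labelled protein coding include genes with a coding transcript in GENCODE vM21, such as Kif21b and Plekhm3. Genes with a sequence-specific transcription factor term made up 6.93% of members and 4.58% of the 10021 genes, RNA processing genes 1.73% and 6.29%, and cell cycle, centrosome and repair genes 10.4% and 10.2%. The 10021 genes keep names starting with Zfp, Egr, Fos or Ier, which the rule leaves out of the members. The shares are therefore of unlike sets. Among the 45 members of other biotypes, 11 were lower with HT-DNA in AOA cells, and 8 with AOA and aspartate (background 6.98% and 1.52%). With aspartate 20 rose and 2 fell without HT-DNA, and 19 rose and 3 fell with it (background 23.5% and 22.8%, and 23.7% and 23.9%). Of the 40 found in the annotation, 19 overlap another gene, and since it is not known whether strand was used in counting, their reads may come from that gene. Eif4a-ps4, a processed pseudogene with the lowest rule ratio (-2.85), shares sequence with its parent and held 77.7, 21.2 and 3.13 CPM in HT-DNA+AOA, a spread too wide for a call (-0.10, SE 0.68). Gm47015, a long noncoding RNA, was at 175, 187 and 186 CPM in AOA and 140, 142 and 128 CPM in HT-DNA+AOA (-0.40, SE 0.06), without overlap, and was also lower with aspartate added (-0.54, SE 0.06).

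Some members belonged to the pathway lists drawn up for this cell type. The counts in these lists stand against 6.98% of all genes lower and 6.46% higher with HT-DNA in AOA cells, and 1.52% lower with aspartate added. Of 19 tested genes of cGAS-STING signalling none was a member, a count near the share of the 10021 rows that fell this far (2.41%). Among these genes 8 were higher and 1 lower with HT-DNA in AOA cells. Of 33 lysine methyltransferases and demethylases, 13 were lower and 1 higher with HT-DNA in AOA cells, and 1 was lower with aspartate added, while the member Kdm7a had -0.52 (SE 0.18, adjusted p = 0.055) and -0.53 (SE 0.17, adjusted p = 0.11). Of 18 clock genes 4 were lower in AOA cells. They included the member Per3 (-0.56, SE 0.16, adjusted p = 0.026), whose call was lost in 5 of 15 alternatives (adjusted p up to 0.23). Of 24 RNA decay genes 2 were lower and 3 higher, and the member Xrn1, the cytoplasmic 5′-3′ exonuclease, had a value of -0.03 (SE 0.14) with HT-DNA and rose with aspartate by 0.76 (SE 0.13). Among 53 F-box and 21 Kelch-like genes tested, 9 and 3 were lower in AOA cells, and Klhl33 was not called (-0.34, SE 0.21).

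At the thresholds of the rule, the members just inside were Gm45322 (-1.0001), Gm47578 (-1.0004) and Atf2 (-1.004), and the rows just outside were Vps13c (-0.9987), Gm42863 (-0.9942) and Cntrl (-0.9940). By Mock level, Gipr (5.21 CPM), Arl11 (5.23 CPM) and Crebl2 (5.28 CPM) were just inside and Gm42605 (4.99 CPM), Alpk1 (4.99 CPM) and Rad51c (4.91 CPM) just outside.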

How the data were processed

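RNA-seq of L929 cells was read from 1 table. It holds an estimated count per gene and library, as deposited by the authors for 18 libraries, with no normalization. Since 11.6% of the values were not whole, the counts were rounded before fitting. The aligner, the genome build and the strand setting of the counting are not given in the sources used here. The authors' group mean columns were only compared with the libraries' means.

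Groups were taken from the sample labels. The members, the role sets and the gene lists were chosen with earlier results of these data known. CPM is the count of a gene over the library total, times 1e6. Counts were normalized by TMM (factors 0.918 to 1.07) and tested with edgeR 4.0.16 (limma 3.58.1, R 4.3.3) by the quasi-likelihood test with robust dispersion and Benjamini-Hochberg adjustment over 14263 genes kept by filterByExpr (minimum count 10, minimum total 15), fitted to all 18 libraries without a replicate block. SE is the absolute log2 fold change over the square root of F. The code was tested on simulated counts. DESeq2 1.42.0, RLE and total scaling, other filters, subsets of libraries, a replicate block, GC content and length correction and leaving out each library were the alternatives. Genes were named by a rule (the 10 with the highest mean CPM in the 12 unused libraries, the 10 with the lowest ratio, the 5 called with the largest fall and rise in each comparison and the interaction, list members, and rows next to the thresholds); others were named after their values were seen. Transcript features came from GENCODE vM21 and promoters from RefSeq, both GRCm38, matched by gene ID and by symbol. In the main fit, replicate numbers were used only to name the cultures. Libraries of 1 group differed by 2.79 to 67.0 times the sampling variance of counts, so none was a duplicate. Some members are not reported here by name.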

Additional observations from a re-analysis of the deposited data

Results flagged for a closer look

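The HT-DNA effect differed between cells with AOA and cells with AOA and aspartate for 6 members by the interaction test of edgeR's quasi-likelihood fit (background 0.785% of all genes with a negative and 0.266% with a positive term). In 4 of them the fall was smaller with aspartate, namely Hbp1 (difference of log2 fold changes 0.89), Pnrc1 (0.81), Ccng2 (0.72) and Pdgfrb (0.45). In 2 the effect was lower with aspartate, namely Filip1l (-0.94) and Eif1ad6 (-0.94), a share of the members (0.866%) near the background. Without HT-DNA+AOA replicate 1, 10 members had a smaller fall with aspartate, and in the fit of the 12 libraries alone 1 did. No share of all genes is given for these fits.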

How the results depend on the processing

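No called fold change of a named gene and no member median of the 4 comparisons changed sign under the alternatives run, whereas the interaction median and some uncalled values did, such as HT-DNA in AOA cells for Eif4a-ps4 (-1.52 to 0.42) and Elovl6 (-0.34 to 0.11). Members called lower by HT-DNA in AOA cells (71) numbered 108 with no filter on low counts, 20 with only the libraries compared, 14 at a minimum log2 change of 1 in size, 46 under the member rule on TMM-scaled CPM and 13 at a ratio of at most -1.5; members called higher (1) numbered 2, 0, 0, 1 and 0 there, 3 with the GC content and length correction and 4 at a Mock minimum of 1 CPM. With AOA and aspartate, the 47 lower became 92 with no filter, 148 with only the libraries compared, 88 with the correction, 6 at the fold minimum and 12 at -1.5, and 1 was higher with no filter or only the libraries compared. The 10 lowered by aspartate without HT-DNA became 26 with the correction, 3 at the fold minimum, 25 at 1 CPM, 6 on TMM-scaled CPM, 1 at -1.5 and 17 when the member rule left out HT-DNA replicate 2. The 151 raised became 42 at the fold minimum, 91 on TMM-scaled CPM and 17 at -1.5, and their median became 0.36 with the correction. With HT-DNA, the 12 lowered became 7 with only the libraries compared, 25 with the correction, 3 at the fold minimum, 24 at 1 CPM, 1 at -1.5 and 20 without HT-DNA replicate 2 in the rule, and the 153 raised became 40, 90 and 16 at the fold minimum, on TMM-scaled CPM and at -1.5. The interaction's 2 lower calls became 1 with library totals, 0 in the fit of 12 libraries, 4 with the correction, and 0 at the fold minimum and at -1.5. Its 4 higher calls became 2, 1, 9, 0 and 1 there, 12 with no filter, 2 on TMM-scaled CPM and 2 without HT-DNA replicate 3 in the rule. The cause of these moves was not tested, beyond the smaller or larger member sets and the stricter limit. The shares of all genes called under these alternatives are not given here, so a count may move with the number of all genes called.

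Leaving out 1 library of the comparison at a time gave 46 to 172 and 29 to 45 members lower with HT-DNA and 0 to 2 and 0 to 0 higher, 135 to 157 and 127 to 192 raised and 10 to 11 and 9 to 13 lowered by aspartate, and 2 to 10 and 0 to 4 for the interaction. Choosing the members without each Mock or HT-DNA library, an alternative chosen after seeing the data, gave 63 to 98 and 42 to 57 lower with HT-DNA and 132 to 214 and 132 to 218 raised by aspartate. The medians ranged from -0.57 to -0.18 and -0.42 to -0.30 with HT-DNA, 0.54 to 0.66 and 0.46 to 0.82 with aspartate and -0.13 to 0.25 for the interaction. Same-numbered libraries did not deviate together in every pair (correlations -0.058 to 0.28). In HT-DNA+AOA against AOA they correlated at 0.28, 0.070 and 0.13, and libraries of different number at -0.24 to 0.12. Whether the numbers pair the samples cannot be told from these values. With a replicate block 78 and 47 members were lower with HT-DNA and 156 and 157 were raised by aspartate. Shares of all genes are not given for the alternatives of this paragraph either.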
